A study of Mus musculus with 4 samples.

Results

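The 10 genes described here carry the antibody class of mouse B lineage cells or mark the cells that secrete antibody. They were 7 heavy chain constant region genes (Ighm, Ighd, Ighg3, Ighg1, Ighg2b, Ighg2c and Igha), Jchain, Mzb1 and Tnfrsf17, taken by symbol from the 32285 genes listed in the files, and all 10 were found. Their unique molecular identifiers (UMIs, each standing for 1 captured RNA molecule) were counted in B cells, in plasma cells and, as a measure of background, in the remaining cells. A plasma cell was any kept cell with at least 5 Mzb1 UMIs and at least 20 Jchain UMIs, so high Mzb1 and Jchain in plasma cells follow from the rule and are given as a description only. B cells were the cells of clusters named from B cell markers that hold none of the 10 genes, with plasma cells taken out.

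Single cells of lung and of synovium were sequenced from female C57BL/6 mice of 4 months. TNF+ mice carried the human TNF transgene of the TNF-Tg line in 1 copy, and TNF- mice were their littermates without it. The human transgene was absent from the reference and was not measured. Each of the 4 libraries was 1 pool of mice, 3 to 5 for lung and 5 to 10 for synovium, after enzymatic digestion, red cell lysis and a sort for viable cells. With 1 library per genotype and tissue no difference between genotypes has a replicate check. All intervals are 95% intervals of counting error alone, exact Poisson for UMIs per cell, exact binomial for shares, conditional binomial for ratios and Newcombe for differences of shares.

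An antibody is built from paired heavy and light chains, and the heavy chain constant region sets its class. Naive B cells carry IgM and IgD from 1 transcript that is spliced in alternative ways, and class switching deletes the DNA up to a downstream constant gene, after which the cell makes IgG, IgE or IgA with the same variable region. Plasma cells secrete the antibody, and the J chain joins IgM into pentamers and IgA into dimers that the polymeric immunoglobulin receptor carries across mucosal epithelium. Mzb1 is an endoplasmic reticulum chaperone that aids antibody folding, and Tnfrsf17 encodes BCMA, the receptor through which BAFF and APRIL keep plasma cells alive.

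The constant genes lie side by side on the minus strand of chromosome 12 (build GRCm38), from Ighm at chr12:113418558-113422730 through Ighd, Ighg3 at chr12:113356224-113361232, Ighg1, Ighg2b and Ighg2c to Igha at chr12:113254830-113260236. Jchain lies at chr5:88519809-88527891 on the minus strand and Tnfrsf17 at chr16:11313812-11320074 on the plus strand. The last 57 coding bases of the secreted forms show which classes can bind the J chain, and they are exonic in each gene. They are printed 5′ to 3′ from the GENCODE vM21 transcripts, with an in-frame cysteine codon in capitals.
Ighm (chr12:113420867-113420923): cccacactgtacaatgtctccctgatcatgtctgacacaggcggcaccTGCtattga
Igha (chr12:113258768-113258824): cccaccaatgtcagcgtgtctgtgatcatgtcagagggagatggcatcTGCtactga
Ighg1 (chr12:113328976-113329032): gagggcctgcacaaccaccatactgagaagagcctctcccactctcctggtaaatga
Ighg2b (chr12:113306389-113306445): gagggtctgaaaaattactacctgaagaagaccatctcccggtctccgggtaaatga
Ighg2c (chr12:113287389-113287445): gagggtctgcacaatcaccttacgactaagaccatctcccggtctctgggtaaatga
Ighm and Igha each hold a cysteine codon just before the last residue, the cysteine known to bond with the J chain, and 38 of their 57 bases were identical. The 3 gamma genes shown, and Ighg3 and Ighd, held 0 cysteine codons in the same window. Ighg2b and Ighg2c were 85.9% identical over their coding sequence with a longest identical run of 78 bases, against 75.8% to 77.7% and runs of 28 to 41 bases for the other pairs of gamma genes. Reads from such stretches cannot be told apart, and the split between Ighg2b and Ighg2c is therefore uncertain.

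The libraries held 48454234 to 155989523 UMIs in 4246 to 11243 barcodes, of which 3152 to 9174 cells were kept, with medians of 7137 to 12492 UMIs per cell. The 6 pairs of libraries shared 5 to 21 barcodes, and 0 of these were plasma cells in both. Of the UMIs of kept cells, immunoglobulin genes took 0.832% in TNF- lung, 4.33% in TNF+ lung, 0.202% in TNF- synovium and 0.0657% in TNF+ synovium. Cell composition differed widely between genotypes, with myeloid cells at 15.2% of kept TNF- and 54.3% of kept TNF+ lung cells and endothelium at 25.4% and 1.33%. Every share of all cells given here moves with these values, whose part in it was not tested.

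The TNF+ lung held a larger share of plasma cells than TNF- lung. There were 21 plasma cells among 6998 kept cells of TNF- lung, 0.300% (0.186 to 0.458), and 124 among 9174 of TNF+ lung, 1.35% (1.13 to 1.61). The difference was 1.05 percentage points (0.783 to 1.33). Counted among B lineage cells, plasma cells made up 1.63% (1.01 to 2.48) in TNF- lung and 8.01% (6.70 to 9.47) in TNF+ lung, and of all immune cells 0.594% and 1.51%. The share was thus higher in TNF+ lung with each of the 3 denominators.

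The synovium held few plasma cells. There were 9 among 6200 cells of the TNF- library, 0.145% (0.0664 to 0.275), and 2 among 3152 of the TNF+ library, 0.0635% (0.00769 to 0.229). The difference of -0.0817 percentage points had an interval of -0.220 to 0.0995, so none was detectable at this depth. When the cells with the highest doublet scores were removed, 20 plasma cells of TNF- and 101 of TNF+ lung were left, but 0 of TNF- and 2 of TNF+ synovium, so all 9 plasma cells of TNF- synovium had been among the cells with high scores.

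**Figure D1:**
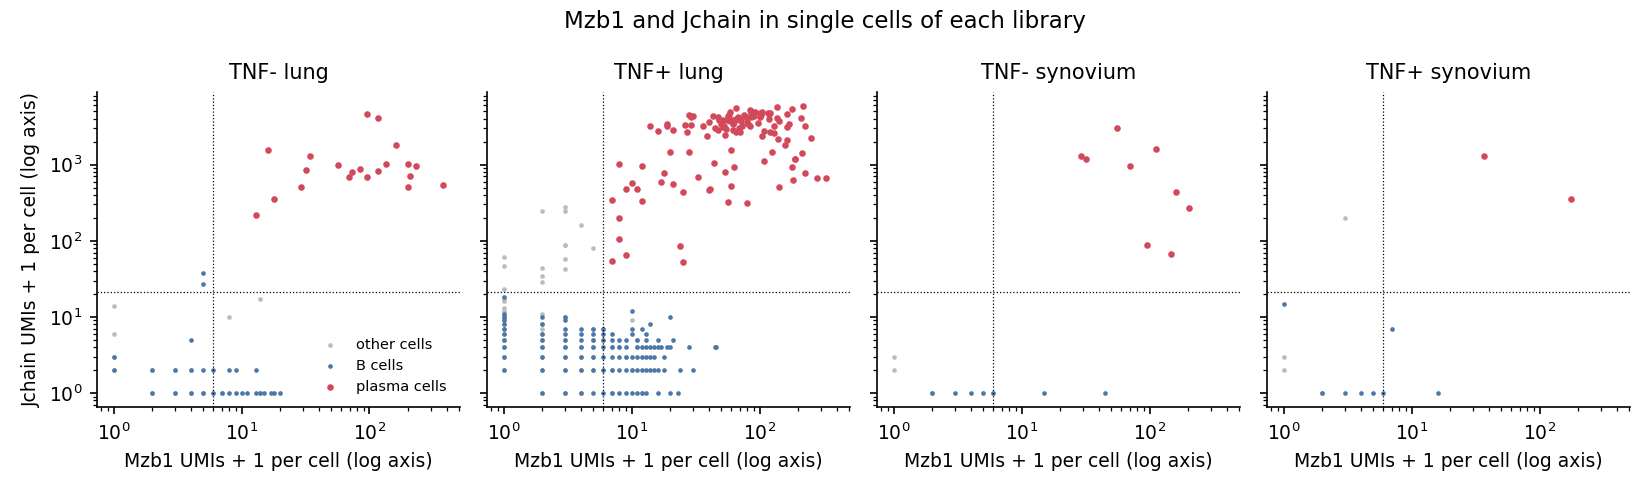
Mzb1 (horizontal) and Jchain (vertical) UMIs plus 1 per cell, on log axes, in each of the 4 libraries, for cells with at least 1 UMI of either gene; the dotted lines mark the plasma cell rule. Plasma cells lie at the upper right, with lowest Jchain values of 216 in TNF- lung, 52 in TNF+ lung, 66 in TNF- synovium and 358 in TNF+ synovium.

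The lowest Jchain value inside the rule was 216 UMIs in TNF- lung, 52 in TNF+ lung, 66 in TNF- synovium and 358 in TNF+ synovium. Cells with 20 or more Jchain UMIs and fewer than 5 of Mzb1 numbered 2, 15, 0 and 1 in the same order, and their highest Jchain values in the 3 libraries that had any were 37, 277 and 200. Of the 15 in TNF+ lung, 10 lay in myeloid clusters, and the median total of the 15 was 2097 UMIs against 46867.5 in the plasma cells. Cells with 5 or more Mzb1 UMIs and little Jchain numbered 103 in TNF- lung and 237 in TNF+ lung, and 97 and 220 of these were B cells, in which Mzb1 is known to be expressed at a lower level.

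The cells chosen by the rule carried the plasma cell program. Of 17 genes of that program (both members left out), 16 of 17 measured were at least 2-fold higher in plasma than in B cells of TNF- lung, 15 of 17 in TNF+ lung, 14 of 16 in TNF- synovium and 8 of 9 in TNF+ synovium. Xbp1, which drives the secretory apparatus, stood at 1037 CPM (the UMIs of a gene scaled to the total UMIs of the same cells) in TNF- lung plasma cells and at 28.6 in B cells. In TNF+ lung Xbp1 stood at 1219 and 45.5 CPM. Of 14 B cell identity genes, B cells were at least 2-fold above plasma cells in 14 of 14, 14 of 14, 14 of 14 and 7 of 8 measured. Ms4a1, the B cell surface protein CD20, gave 2 UMIs over the 21 TNF- lung plasma cells and 5939 over the B cells of that library. Lung plasma cells fell mainly into clusters that had no name by the marker rule (19 of 21 and 113 of 124), and all synovial plasma cells lay in B cell clusters. An unnamed lung cluster of 194 cells passed 11 plasma cell markers. It got no name because its top genes held 3 markers of another type and 1 of its own.

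Lung plasma cells used Igha, the heavy chain of the mucosal class. Igha was the leading constant gene in 21 of 21 plasma cells of TNF- lung and in 119 of 124 of TNF+ lung. The other TNF+ lung plasma cells were led by Ighm in 2 cells, by Ighg2b in 2 and by Ighg1 in 1. The Ighg2b cells held 14112 and 6209 Ighg2b UMIs and the Ighg1 cell held 12940 Ighg1 UMIs, while the Ighm cells held only 233 and 124 Ighm UMIs and lay in B cell clusters. Within a cell the leading gene took nearly all heavy chain UMIs, with a median of 99.98% in TNF- lung and 99.95% in TNF+ lung and lowest values of 88.2% and 95.6%.

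Summed over cells, Igha made up 99.3% of the heavy chain UMIs of plasma cells in TNF- lung and 95.2% in TNF+ lung, a difference of -4.15 percentage points (-4.23 to -4.07). This difference rested on 3 cells with IgG. Without the cells of highest doublet score the Igha share was 99.3% and 99.8%, and the difference turned to 0.477 percentage points. The Igha UMIs per plasma cell ranged from 730 to 10142 around a median of 2466 in TNF- lung. In TNF+ lung they ranged from 3 to 12036 around a median of 6175.5, and plasma cells of that library were also deeper in total UMIs (medians 46867.5 and 30853). The 2 distributions overlap over most of their range.

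**Figure D2:**
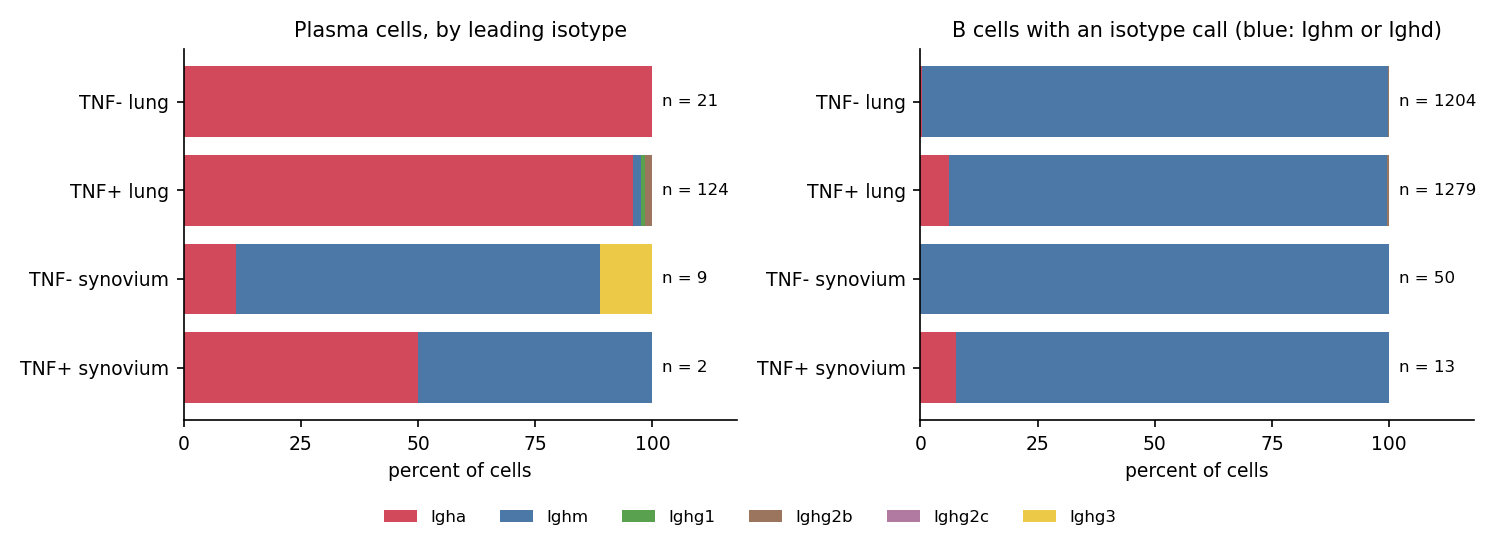
Percent of plasma cells by leading heavy chain gene (left) and percent of B cells with an isotype call by isotype (right, blue standing for Ighm or Ighd) in each of the 4 libraries; n is the number of cells. Lung plasma cells are nearly all led by Igha (21 of 21 and 119 of 124), TNF- synovial plasma cells mostly by Ighm (7 of 9), and most B cells carry Ighm or Ighd.

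The plasma cells of TNF- synovium used Ighm instead, the first class made in a response. Of its 9 plasma cells, 7 were led by Ighm, 1 by Igha and 1 by Ighg3, and of the 2 in TNF+ synovium 1 was led by Igha and 1 by Ighm. The 7 cells led by Ighm held 526, 1716, 2116, 2246, 3706, 3711 and 5408 Ighm UMIs. The single Igha cell held 6441 Igha UMIs and the single Ighg3 cell 2943 Ighg3 UMIs, and each had nearly all of its library's UMIs of that gene (98.7% and 94.4%). The TNF+ cells held 1066 Igha and 1890 Ighm UMIs. The Igha share of heavy chain UMIs was 22.3% in TNF- synovium and 36.1% in TNF+ synovium, a difference of 13.8 percentage points that rests on 1 cell in each library.

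A few cells of the synovium with heavy chain UMIs lay outside the rule. In TNF+ synovium 98.1% of all Ighg1 UMIs came from 1 cell, which held 684 Ighg1, 200 Jchain, 913 Igkc and 2 Mzb1 UMIs and lay in a fibroblast cluster. The same barcode held 178 UMIs of the collagen gene Col1a1 and 19 of Pdgfra over 4391 detected genes, so transcripts of both kinds of cell stood under 1 barcode. This cell was chosen after its values were seen.

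Traces of another class were found in part of the lung plasma cells. At least 5 UMIs of a class other than the leading one were present in 6 of 21 TNF- lung plasma cells and 48 of 124 TNF+ lung plasma cells. Among the 48, such traces were of Ighg2b in 29 cells, Ighg2c in 7, Ighm in 6, Igha in 4 and Ighg1 in 3, and 1 cell held traces of 2 classes and is counted under both. Ighg3, by contrast, gave 293 UMIs over TNF- lung plasma cells, all 293 in 1 cell led by Igha, and 0 over the 124 of TNF+ lung. For comparison, T cells of TNF+ lung held means of 4.76 Igha and 1.62 Ighm UMIs per cell. For Ighg2b, Ighg2c and Ighg1 these means were 0.0742, 0.0807 and 0.0582. The Igha mean is thus near the limit of 5 UMIs, and the part of background in the traces was not tested. Ighm was not at 1 level over the classes of that library. It gave 2232 UMIs over 1375 T cells, 3081 over 4981 myeloid cells and 32 over 122 endothelial cells.

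Jchain reached its highest levels in TNF+ lung. It ranged from 216 to 4554 UMIs per plasma cell around a median of 850 in TNF- lung and from 52 to 5824 around a median of 3150 in TNF+ lung. In TNF- synovium the range was 66 to 3004 with a median of 971, and the 2 TNF+ cells held 358 and 1303. The ranges overlap in all 4 libraries. Of all Jchain UMIs in the kept cells, plasma cells held 97.9% in TNF- lung, 95.6% in TNF+ lung, 98.9% in TNF- synovium and 87.6% in TNF+ synovium.

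Mzb1 followed another order. The median per plasma cell was 95 UMIs (12 to 376) in TNF- lung, 63 (6 to 329) in TNF+ lung and 94 (28 to 201) in TNF- synovium, and the 2 TNF+ synovial cells held 174 and 36. Plasma cells held 49.6% and 70.9% of the lung Mzb1 UMIs and B cells 46.4% and 24.6%. The rule used both Mzb1 and Jchain, at unequal limits, so their shares in plasma cells are not compared with each other.

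Tnfrsf17, which the rule did not use, came mostly from plasma cells. Plasma cells held 93.6% of its UMIs in TNF- lung, 96.0% in TNF+ lung, 84.1% in TNF- synovium and 66.7% in TNF+ synovium, the last out of few UMIs. It was detected in 21 of 21, 116 of 124, 9 of 9 and 2 of 2 plasma cells, with medians of 13, 9 and 8 UMIs in the first 3 libraries and values of 10 and 2 in the last. Over all B cells it gave 4, 2, 1 and 2 UMIs.

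**Figure D3:**
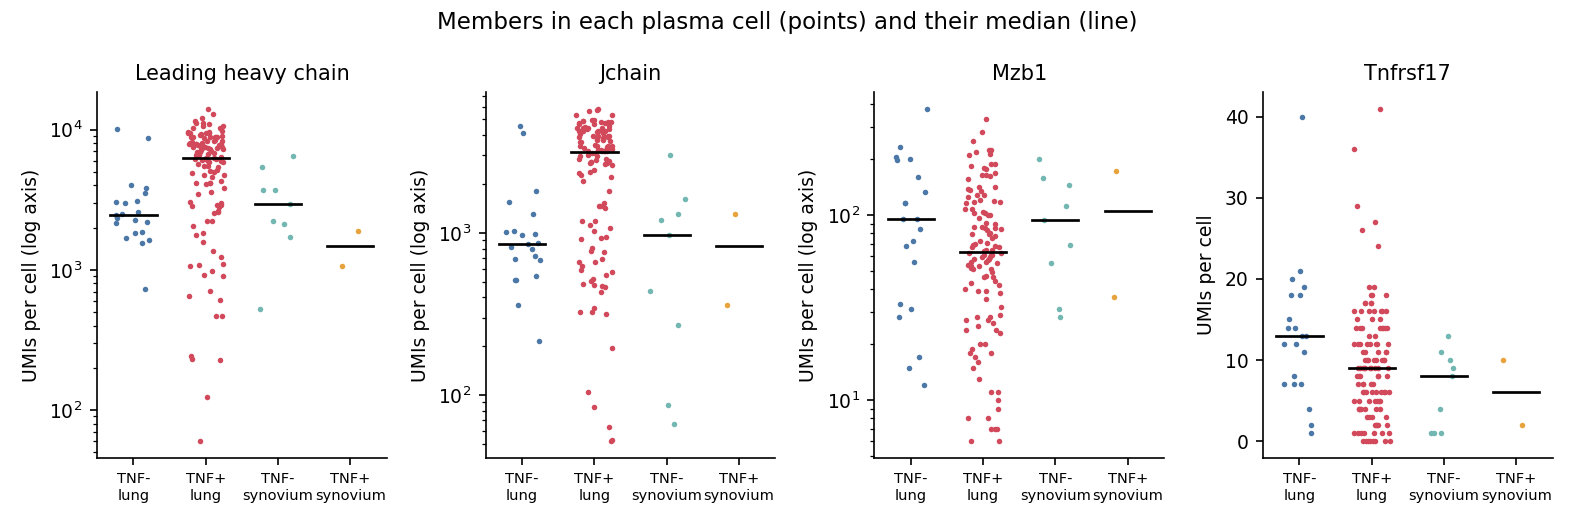
UMIs per plasma cell of the leading heavy chain gene, Jchain, Mzb1 (log axes) and Tnfrsf17 (linear axis) in the 4 libraries; each point is 1 cell and the black line the median. Jchain is highest in TNF+ lung (median 3150 against 850 in TNF- lung), and Mzb1 and Tnfrsf17 have lower medians there (63 against 95, and 9 against 13).

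Between the lung libraries 9 of the members had at least 20 UMIs over the plasma cells, and 4 were at least 2-fold higher in TNF+ and 1 lower. Of all 8507 genes compared, 6.03% were as much higher and 19.7% as much lower, and their median log2 ratio was -0.46. Ighg2b went from 89 to 21742 UMIs (log2 ratio of CPM 4.95, 4.65 to 5.27) and Ighg1 from 61 to 13038 (4.76, 4.39 to 5.14). Most of the TNF+ UMIs of both genes lay in the 3 IgG cells. Ighm went from 5 to 631 UMIs (4.00, 2.77 to 5.62) and Ighg2c from 7 to 196 (1.82, 0.75 to 3.16), the former with 233 of its UMIs in 1 cell.

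The members expressed by most plasma cells had smaller ratios. Jchain was higher by a log2 ratio of 0.80 (0.78 to 0.82) and Igha by 0.44 (0.43 to 0.45), while Mzb1 was lower by -0.88 (-0.95 to -0.82) and Tnfrsf17 by -0.88 (-1.07 to -0.68). The plasma cell program had 0 of 17 genes at least 2-fold higher and 2 lower, beside 19.7% of all genes as much lower. The 2 were Irf4 (-1.04), a transcription factor of plasma cell differentiation, and Hsp90b1 (-1.06), a chaperone of the endoplasmic reticulum. The list median was -0.38, and that of all genes -0.46. Immunoglobulin genes took a median of 43.2% of the UMIs of a plasma cell in TNF- lung and 64.5% in TNF+ lung. A larger share lowers the CPM of all other genes, and its part in these ratios was not tested. Sdc1, the plasma cell surface protein CD138, was at 125 CPM in the TNF- and 191 CPM in TNF+ lung.

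Among 6 homing genes measured 1 was higher and 3 lower, beside 6.03% and 19.7% of all genes. Cxcr4, the receptor that retains plasma cells in marrow, gave 1 UMI in TNF- lung plasma cells and 70 in the TNF+ ones (3.15, 0.62 to 8.47). Itgb7, an integrin chain of gut-homing cells, was at 344 and 79.1 CPM (-2.12, -2.35 to -1.88), and S1pr1, the receptor for exit from tissue, gave 17 and 19 UMIs (-2.82, -3.85 to -1.79). Cxcr3, the other lower gene, gave 7 and 23 UMIs, with an interval that included 0 (-1.27, -2.53 to 0.20). Ccr10, the receptor that directs IgA plasma cells to mucosa, was at 161 CPM in the TNF- and 209 CPM in TNF+ lung.

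Light chain use was also uneven. Igkc led in 21 of 21 TNF- lung plasma cells, in 119 of 124 TNF+ lung plasma cells and in all 11 of the synovium, and the other 5 TNF+ lung cells were led by a lambda gene. Variable genes could be paired in part of the cells, a pair being named in kappa cells where 1 Ighv and 1 Igkv gene each had at least 5 UMIs and the Ighv gene held 60% of all Ighv UMIs of the cell. In TNF- lung 16 cells had such a pair and all 16 differed. In TNF+ lung 107 cells gave 99 different pairs, of which 7 were found in more than 1 cell and covered 15 cells, the most frequent being Ighv1-18 with Igkv12-46 in 3 Igha cells. In TNF- synovium 9 cells gave 7 different pairs. Ighv11-2 with Igkv14-126 occurred in 2 Ighm cells, and Ighv1-11 with Igkv8-16 in 1 Ighm cell and in the Ighg3 cell, which also held 47 Ighm UMIs. Junction sequences were not analysed here, so a shared pair does not show shared descent.

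B cells carried mainly Ighm and Ighd. They numbered 1270 (18.1% of kept cells) in TNF- lung, 1425 (15.5%) in TNF+ lung, 53 (0.855%) in TNF- synovium and 34 (1.08%) in TNF+ synovium. Ighm stood at 15.5 UMIs per B cell (15.3 to 15.7) in TNF- lung, 16.2 (15.9 to 16.4) in TNF+ lung, 18.8 (17.7 to 20.04) in TNF- synovium and 6.74 (5.89 to 7.67) in TNF+ synovium. The last library was also the shallowest, with a median of 4189.5 total UMIs per B cell against 7185.5 to 7631 in the others. T cells of the same libraries held 1.76, 1.62, 0.412 and 0.132 Ighm UMIs per cell.

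Ighd was lower in TNF+ libraries of both tissues when counted per cell. It stood at 6.09 UMIs per B cell (5.96 to 6.23) in TNF- lung and 4.89 (4.78 to 5.01) in TNF+ lung, and at 2.89 (2.45 to 3.38) and 1.44 (1.07 to 1.91) in the synovium. Scaled to total UMIs the log2 ratio was -0.42 (-0.46 to -0.37) in lung and -0.18 (-0.68 to 0.29) in synovium, the latter interval including 0. Of all Ighd UMIs in kept cells, 92.0% to 98.0% lay in B cells.

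Ighm outnumbered Ighd by more in B cells of TNF- synovium than in lung B cells of either genotype. There were 2.54 Ighm UMIs per Ighd UMI (2.48 to 2.61) in B cells of TNF- lung and 3.301 (3.21 to 3.39) in TNF+ lung, against 6.52 (5.50 to 7.78) in the TNF- and 4.67 (3.42 to 6.50) in TNF+ synovium. The intervals of the 2 genotypes did not overlap in lung and overlapped in synovium. In TNF+ synovium 1 of the 34 B cells held 88 of the 229 Ighm UMIs. Without it Ighm stood at 4.27 UMIs per B cell instead of 6.74, so the ratio of that library depends on 1 cell. Each UMI stands for 1 molecule counted at its 3′ end, so these ratios are not divided by gene length. Among B cells with at least 5 Ighm UMIs, Ighd was undetected in 3.61% (2.60 to 4.86) and 5.37% (4.15 to 6.81) in the TNF- and TNF+ lung. In the synovium it was undetected in 10 of 47 such cells of the TNF- library, 21.3% (10.7 to 35.7), and in 3 of 9 of the TNF+ library.

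Igha in B cells was at the level of T cells in TNF+ lung. B cells held 1.04 Igha UMIs per cell (0.985 to 1.10) in TNF- lung and 4.76 (4.65 to 4.88) in TNF+ lung. In TNF- lung 2 cells carried most of this, and without them the level was 0.270 (0.242 to 0.300). T cells, which do not make antibody, held 0.213 (0.183 to 0.246) in TNF- lung and 4.76 (4.64 to 4.88) in TNF+ lung. The same TNF+ library held 4.65 Igha UMIs per cell in NK or innate lymphoid cells, 5.45 in myeloid cells, 3.91 in endothelium, 3.59 in mesenchyme and 4.01 in epithelium, against 0.145 to 0.287 in these classes of TNF- lung. A level shared by all classes is read as background, so most Igha outside plasma cells of TNF+ lung gives no count of Igha-expressing cells.

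Jchain showed the same pattern, with 1.55 UMIs per B cell and 1.58 per T cell in TNF+ lung and 0.106 and 0.0592 in TNF- lung. Per Igkc UMI there were 0.439 to 0.549 Igha UMIs in all TNF+ lung classes other than B and plasma cells, 0.328 in plasma cells and 0.102 in B cells. Heavy chain UMIs per cell in named clusters outside B and plasma cells were 0.9996 in TNF- lung and 6.27 in TNF+ lung (log2 ratio 2.65, 2.61 to 2.69). In such clusters of the TNF- and TNF+ synovium they were 0.262 and 0.286 (0.13, 0.003 to 0.25). Of the TNF- synovial UMIs, 645 were Ighm UMIs of the 621 myeloid cells. Ighm stood there at 1.04 UMIs per myeloid cell, 0.127 per mesenchymal and 0.0755 per endothelial cell. In TNF+ synovium it stood at 0.0791 per myeloid cell. Of the TNF+ synovial UMIs, 684 were Ighg1 UMIs of the 1 barcode in a fibroblast cluster described above. Ighg1 stood at 1.18 UMIs per TNF+ synovial mesenchymal cell with that barcode and at 0.00344 without it. The synovial ratio therefore depends on 1 barcode and on Ighm in myeloid cells, and it is not set against that of lung.

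**Figure D4:**
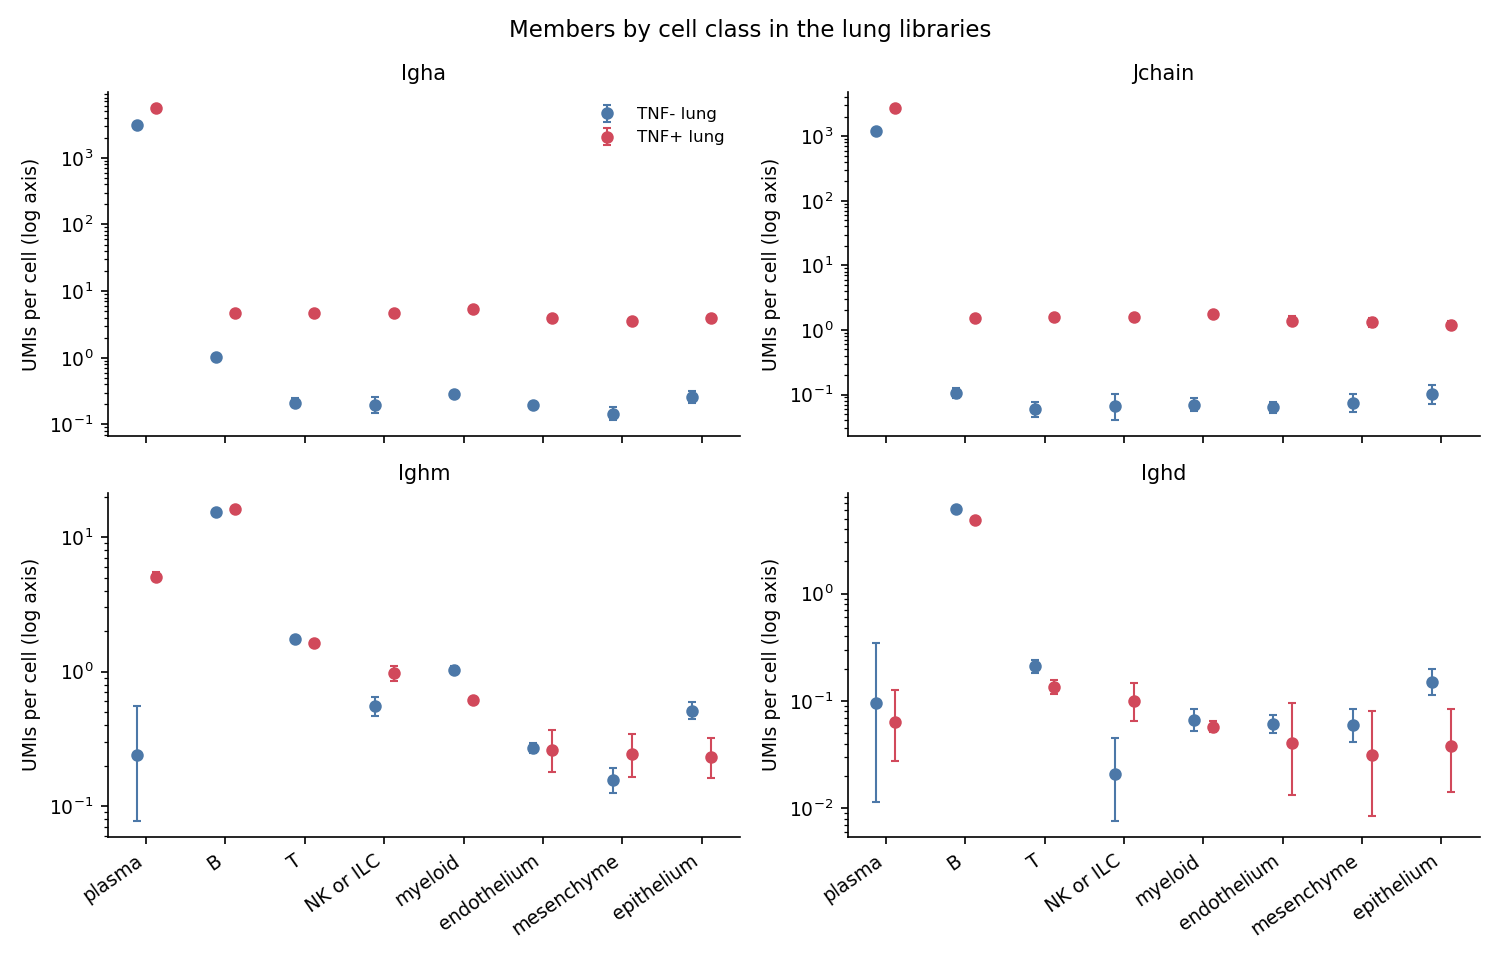
UMIs per cell of Igha, Jchain, Ighm and Ighd (log axes) in 8 cell classes of the TNF- and TNF+ lung, with 95% Poisson intervals. Igha and Jchain are higher in TNF+ lung in every class shown, at 4.76 and 1.58 UMIs per T cell, whereas Ighm and Ighd stand highest in B cells of both libraries.

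Shares of cells with at least 1 UMI were likewise near each other in B and T cells. With every cell thinned to 1000 UMIs, Igha was found in 3.00% of B cells and 1.59% of T cells of TNF- lung and in 45.1% and 42.5% of TNF+ lung. Without thinning the shares were 20.4% and 19.0%, then 97.7% and 98.4%, at median depths of 7185.5 and 9322 UMIs in TNF- lung and of 7631 and 9169 in TNF+ lung. Ighd, in contrast, was found after thinning in 52.5% and 42.1% of B cells and in 1.03% and 0.802% of T cells.

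A small number of B cells held many Igha UMIs. At least 20 Igha UMIs were present in 3 of 1270 B cells of TNF- lung, 0.236% (0.0487 to 0.689), and in 18 of 1425 of TNF+ lung, 1.26% (0.750 to 1.99), against 0 of 879 T cells, with an exact upper limit of 0.419%, and 1 of 1375. Of these B cells, 3 of 3 and 15 of 18 held fewer than 5 Ighm UMIs. In TNF- lung 2 of them held 611 and 368 Igha UMIs, most of the 1321 found in B cells of that library. Both had 4 Mzb1 UMIs, 1 below the plasma cell rule, with 26 and 37 of Jchain. In TNF+ lung the highest value in a B cell was 56, and the 18 B cells were deeper than B cells at large (medians 12831.5 and 7631 total UMIs). Myeloid cells of TNF+ lung had at least 20 Igha UMIs in 33 of 4981 cells, 0.663% (0.456 to 0.929), and at least 50 in 12, against 2 B cells. At 10 or more the share was lower in B cells (5.68%) than in T cells (6.47%) or myeloid cells (7.73%), so high Igha in TNF+ lung was not limited to B lineage cells.

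The share of heavy chain UMIs from switched classes in B cells was 5.25% in TNF- lung and 19.8% in TNF+ lung, and 0% and 22.1% in the synovium. With the mean T cell level of the same library subtracted, an alternative added after the data were seen, the lung shares became 4.73% and 1.22%. The former rested on the 2 cells just below the plasma cell rule. Without the 2 B cells with most Igha in each library the subtracted shares were 1.03% and 1.20%. The subtracted T cell level of Ighm lay above that of endothelium in both lung libraries, and how much of it is background was not tested. In TNF+ synovium the share rested on 1 B cell with 73 Igha UMIs. By cell, 5 Igha, 3 Ighg2b and 1 Ighg2c cells stood among 1204 B cells with an isotype call in TNF- lung, a call needing at least 60% of at least 5 heavy chain UMIs. In TNF+ lung there were 78 Igha and 5 Ighg2b cells among 1279. These Igha cells had a median of 9 heavy chain UMIs, beside 6.27 per cell in named clusters outside B and plasma cells of that library. In the synovium 50 of 50 and 12 of 13 called B cells were Ighm or Ighd.

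In lung B cells 6 of 9 members with enough UMIs were at least 2-fold higher in TNF+ and 0 lower, beside 5.83% of all 13358 genes higher and 7.36% lower. Their log2 ratios were 3.76 for Jchain (3.51 to 4.03), 2.09 for Igha (2.01 to 2.18), 1.64 for Ighg1 (0.99 to 2.34), 1.43 for Ighg2c (0.94 to 1.94), 1.42 for Ighg2b (1.08 to 1.78) and 1.32 for Ighg3 (0.74 to 1.92). The Igha ratio became 4.02 without the 2 B cells with most Igha in each library, and the Ighg1 ratio 3.39 with each cell weighted equally. Mzb1 was at 0.40 and Ighm at -0.04. The median of the 9 was 1.42, and that of all genes -0.02. These ratios include background. In TNF+ lung B cells did not exceed T cells beyond counting error in Igha (log2 ratio of B over T cells 0.001, -0.05 to 0.05) or Ighg1 (0.18, -0.26 to 0.63). Their mean Jchain level was near that of T cells and not above it. No ratio between genotypes above background is therefore given for these 3 genes. Ighg2c lay just above T cells (0.37, 0.009 to 0.74), and with the T cell level subtracted its ratio between genotypes was -0.60. Ighg3 was the gamma gene least shared with T cells, at 0.0716 UMIs per B cell and 0.00145 per T cell in TNF+ lung (log2 ratio of B over T cells 5.62, 3.73 to 8.69), and it gave 34 UMIs over the B cells of TNF- lung and 102 over those of TNF+ lung.

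In synovial B cells only 5 members had enough UMIs, and 2 were at least 2-fold higher in TNF+ and 0 lower, beside 8.05% and 13.4% of all 4420 genes. Igha went from 0 to 73 UMIs and Jchain from 0 to 20, all of the former in 1 cell. Ighm was lower (log2 ratio -0.67, -0.88 to -0.46), and for Mzb1 the interval included 0 (0.42, -0.10 to 0.91).

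**Figure D5:**
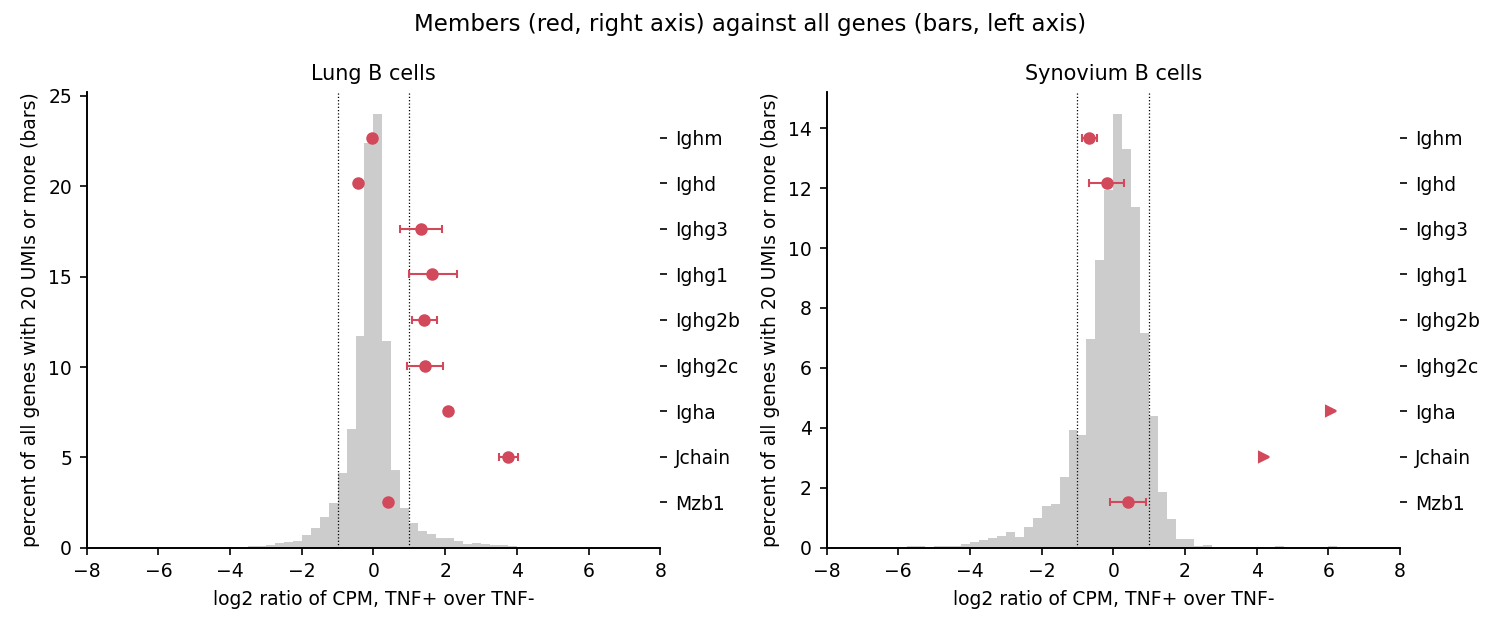
Log2 ratio of CPM, TNF+ over TNF-, in B cells of lung and synovium, for the members (red points with 95% intervals, right axis) and for all genes with at least 20 UMIs (gray bars, percent of genes, left axis). In lung, Jchain (3.76) and Igha (2.09) lie farthest to the right, and Ighm (-0.04) and Ighd (-0.42) lie among most genes.

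Most other gene lists had medians near that of all genes in lung B cells. Of 14 B cell identity genes 0 were beyond 2-fold, and of 17 plasma cell program genes 0 were higher and 1, Fkbp11, was lower. Of 10 B1 and memory-like genes 4 were higher and 0 lower: the Fc receptor-like gene Fcrl5 (2.65, 2.39 to 2.91), the integrin Itgax (2.25, 1.64 to 2.91), the costimulator Cd80 (1.42, 1.05 to 1.81) and the B1 factor Bhlhe41 (1.07, 0.82 to 1.34). The list median was 0.86. Ahnak (-0.74, -0.88 to -0.59) and S100a6 (-0.28, -0.39 to -0.17) of the same list were lower by less than 2-fold. In synovial B cells 4 genes of the list were measured, of which 1 was higher and 3 lower, with a median of -2.06. Among B cell progenitor genes 2 of 4 were lower, the surrogate light chain genes Vpreb1 (56 to 7 UMIs) and Igll1 (32 to 0 UMIs). Of 8 switch and germinal center genes 2 were higher, S1pr2 (4 and 18 UMIs, 1.90, 0.30 to 3.92) and Fas (62 and 158 UMIs, 1.08, 0.65 to 1.53). Without 2 small B cell clusters that each came mostly from 1 library, Fas was at 0.75 (0.29 to 1.21), and S1pr2 fell under the minimum of 20 UMIs with 3 and 14 (1.98, 0.14 to 4.42).

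The ligands of BCMA came from other cells. Tnfsf13, which encodes APRIL, had 52.9% of its UMIs in myeloid cells of TNF- lung and 92.9% in those of TNF+ lung, at 70.3 and 76.9 CPM. Tnfsf13b, which encodes BAFF, had 57.1% of its UMIs in mesenchyme and 33.1% in myeloid cells of TNF- lung, and 14.2% and 69.6% in TNF+ lung. The Tnfsf13b level moved the other way, from 91.3 to 164 CPM in mesenchyme and from 21.2 to 8.91 CPM in myeloid cells, while kept mesenchymal cells went from 546 to 128 and myeloid cells from 1061 to 4981. Of the other receptors, Tnfrsf13c had 91.2% and 88.8% of its UMIs in B cells, and Tnfrsf13b stood at 211 and 181 CPM in plasma cells and 140 and 157 CPM in B cells. Pigr, the polymeric immunoglobulin receptor, gave 15 UMIs in lung epithelium of TNF- mice (4.23 CPM) and 105 in that of TNF+ mice (108 CPM). More of its UMIs lay in B cells, with 53 of 75 in TNF- lung (70.7%) and 151 of 342 in TNF+ lung (44.2%). In B cells Pigr stood at 5.49 and 13.0 CPM (log2 ratio 1.24, 0.78 to 1.72).

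Over 31 sums of cell class and library, and among 17692 genes, the gene with the pattern most like Ighd was Pax5 (Pearson r of log2 CPM 0.970), with Bank1, Gm31243 and Fcmr also among the nearest. Igha and Jchain were the nearest to each other (0.962), with Ighg2b next for both. Tnfrsf17 was nearest to variable genes, led by Igkv4-55 (0.945). The points share libraries and background RNA, and these values are a description.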

How the data were processed

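The authors deposited whole-number UMI counts per gene and cell for 4 droplet libraries (10x Genomics 3′ chemistry), without normalization, made with Cell Ranger 7.0.1 on mm10 (GRCm38) per the labels. Cells with 200 to 5000 genes and at most 20% mitochondrial UMIs were kept, the limits of the study; doublets were not otherwise removed. Each tissue was clustered with scanpy 1.11.5 (2000 variable genes without immunoglobulin genes and members, 30 components, 20 neighbours, Leiden resolution 0.8), giving 33 lung and 28 synovial clusters. Clusters were named from 214 marker genes of 17 types, by at least 5 markers 2-fold above the rest. A cluster stayed unnamed where markers of another type outnumbered its own among its 10 top genes. It also did where it was shallow and had none of its own markers there. Named genes were the 10 members, the genes of the lists above with at least 20 UMIs, and those among the 5 genes most like Ighd, Igha, Jchain and Tnfrsf17; 1 of these is not reported here. Members and lists were chosen with earlier results of these data known. Ratios compare CPM of summed UMIs of genes with at least 20 UMIs; against 0 UMIs a floor of 3 was used. The ratio step was tested on simulated data. With 1 library per group no test across samples was made. UMIs from PCR copies of 1 molecule count once, and depth per library is given with the results. Columns of other series: none. Alternatives were other filters, doublet removal, plasma and B cell rules, clustering and scalings. Analyses used Python 3.11.15, numpy 2.4.6 and scipy 1.17.1.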

Additional observations from a re-analysis of the deposited data

Results flagged for a closer look

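The Igha share of heavy chain UMIs in plasma cells moved in opposite directions in the 2 tissues. It differed by -4.15 percentage points between the TNF+ and TNF- lung and by 13.8 between the TNF+ and TNF- synovium. The difference between these differences was not tested, and the synovial value rests on 1 Igha cell in each library.

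Barcodes removed by the filter held further plasma cells by the same rule: 12 in TNF- lung, 30 in TNF+ lung and 1 in TNF- synovium. Each had been removed for more than 5000 detected genes. Igha was the leading heavy chain gene in 12 of the 12 and 27 of the 30 in lung. The proliferation gene Mki67 was detected in 9 of the 12 and 18 of the 30, against 7 of 21 and 31 of 124 of the plasma cells that were kept. Removal chose cells with many detected genes, so detection of 1 gene is not comparable between removed and kept cells. At least 3 Mki67 UMIs were found in 3 of 21 and 7 of 124 of the kept plasma cells.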

How the results depend on the processing

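No paired analysis was possible because each group is 1 library. The higher plasma cell share of the TNF+ lung kept its direction under all 7 alternatives run (0.903 to 1.21 percentage points). The class-switched share of heavy chain UMIs in lung B cells (14.6 points higher in TNF+) became 17.0 with no filter on cells, 17.3 with 500 to 5000 genes and at most 10% mitochondrial UMIs, 20.1 without the highest doublet scores, 17.9 and 21.0 with the plasma rule at 3 Mzb1 and 10 Jchain or at 10 and 50 UMIs, 24.99 with B cells taken by genes, 22.6 with each cell equal and 17.7 without the 2 B cells with most Igha. With the T cell level subtracted it reversed to -3.51, a value that rests on 2 B cells of TNF- lung, since without the 2 B cells with most Igha it was 0.175. The subtracted log2 ratios of Ighg2c (-0.60) and Ighm (0.0824) also turned; none is given for Igha, Ighg1 and Jchain, nor a count of members beyond 2-fold, as B cells of TNF+ lung did not exceed T cells in these 3 genes. Over the other alternatives the lung B cell log2 ratio ranged from 2.08 to 4.06 for Igha, 1.61 to 3.39 for Ighg1 and 3.75 to 4.67 for Jchain. Ighm was also at 0.0609 in UMIs per cell. The T cell level of Ighm used in the subtraction lay above that of endothelium. The per-cell call (main difference 5.74 points) fell to 2.59 at 10 UMIs and 80%. The Igha share of lung plasma cells (-4.15) became -3.09 with no filter and with no upper limit on genes, -3.82 at 3 Mzb1 and 10 Jchain, -3.55 with each cell equal, and 0.477 without the highest doublet scores. In synovium (13.8) it became 19.3 with no filter and with no upper limit, 38.9 with each cell equal and 11.9 without barcodes found in several libraries. The synovial class-switched difference (22.1) became 2.22 with B cells by genes, 6.73 with each cell equal, and 2.17 without the 2 cells or 2.20 with the T cell level also subtracted. The lung background log2 ratio ranged over 2.80 (no filter), 2.45 (stricter filter), 2.91 (doublet scores), 2.98 (B cells by genes) and 2.60 (resolution 1.5). The synovial one (0.13), which depends on 1 barcode with many Ighg1 UMIs and on Ighm in myeloid cells, turned to -0.0855 with no filter. Synovial members beyond 2-fold (2) numbered 0 with B cells by genes, at a minimum of 100 UMIs and without the 2 cells, and 4 in UMIs per cell. The causes were not tested. The alternatives on T cell level, the 2 B cells, the upper limit, the 2 small clusters and shared barcodes were chosen after seeing the data.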
